A study of Mus musculus with 6 samples.

Results

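The genes of the mitochondrial ribosome that carry an Mrpl or Mrps symbol were followed across 6 libraries of sorted embryonic mouse forebrain cells. They were taken as the protein-coding rows whose symbol is Mrpl or Mrps plus a number, with a, b or c at the end where a number has several genes. The rule found 78 genes among the 52636 rows of the deposited table. All 78 passed the filter on low counts and stood among the 16869 genes tested.

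Embryos were taken at the embryonic stage E12.5, when neurogenesis in the cortex is under way, and forebrain cells carrying the surface protein Prominin1 were sorted by flow cytometry as cortical radial glia, from which the neurons of the cortex arise. The mutants, called SmadNes, were Smad1wt/fl;Smad5wt/fl;Nestin:Cre+/0. The control littermates were Smad1wt/fl;Smad5wt/fl;Nestin:Cre0/0, so both groups were heterozygous for the floxed Smad1 and Smad5 alleles, on mixed genetic backgrounds of CD1, 129/ola and C57BL6. Nestin:Cre drives the Cre recombinase in neural progenitors, so other cells caught by the sort need not have recombined. Each genotype had 3 pools (SF3, SF4 and SF5_6, names used in either group), and the labels do not give the number of embryos in a pool. The p-values for genotype alone are set against the spread between these pools. With the pool name in the fit, as a block or as the comparison, the error is what is left after genotype and pool name. In the comparison of pool names, the control and SmadNes library of a name serve as its replicates.

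Mitochondria keep a ribosome of their own, which translates the few proteins still encoded in mitochondrial DNA, all of them parts of the respiratory chain complexes and of ATP synthase. Its RNA comes from the mitochondrial genome, while all of its proteins are encoded in the nucleus, made in the cytosol and imported. A ribosome needs its proteins in matched amounts, and the mitochondrial one has gained many proteins that bacterial ribosomes lack. By textbook assignment, 51 of the 78 genes encode proteins of the large subunit and 26 of the small subunit. Mrps30 and Mrps18a, named for the small subunit, belong to the large one. Mrps36, now known as a subunit of the 2-oxoglutarate dehydrogenase complex, was kept because the rule names it. Of the ribosomal members, 46 have a bacterial counterpart and 31 are found only in mitochondrial ribosomes.

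Whole-library values were as follows. The total expected count lay between 32997423 and 40744672 per library. The markers of radial glia (8 genes) summed to between 1592 and 2006 CPM (counts scaled to a common library size with edgeR's TMM factors), with Prom1 itself between 106 and 132 CPM. Markers of other cells were present too: neuron markers (6 genes) summed to 2367 to 3527 CPM, erythroid markers (6 genes) to 86.9 to 947 CPM, mesenchymal markers (4 genes) to 146 to 627 CPM and microglial markers (4 genes) to 7.46 to 62.9 CPM. In bulk libraries such as these, fewer cells of a type and less RNA per cell cannot be told apart. Smad1 and Smad5 were higher in the library labelled SmadNes in all 3 pairs, with log2 differences of 0.23 and 0.42. For both genes every SmadNes library stood above every control. With the pool name as a block, edgeR's adjusted p was 0.257 for Smad1 and 0.00757 for Smad5. Counts over the whole gene do not separate the floxed exons from the rest, so they are no check of the deletion. Every direction below rests on the labels.

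The members lie on 17 chromosomes, with 11 of them on chromosome 11. Many share a start region with a neighbour. A protein-coding gene on the opposite strand starts within 1000 bases of 33 of the 78 members (42.3%), at a median distance of 128 bases, against 2139 of the 14091 tested protein-coding genes (15.2%). The count holds pairs that point away from each other and pairs whose gene models overlap at their starts. Neighbours that point away from each other can use a single promoter region in both directions. In 1 case both genes are members: Mrps11, which encodes a protein of the small subunit with a bacterial counterpart, and Mrpl46, a large-subunit protein found only in mitochondria. RefSeq places their starts 42 bases apart on chromosome 7.

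Promoter windows from RefSeq (GRCm38.p6), each running from 250 bases before to 50 bases after a gene's start, were found for 69 of the 78 members, as 75 windows. Mrpl13, Mrpl15, Mrpl19, Mrpl38, Mrpl4, Mrpl54, Mrps28, Mrps34 and Mrps35 were not matched. Each window was searched on both strands for CCGGAAG (the core bound by ETS factors, among them the GABP complex), GCGCATGCG (the palindromic site of NRF1) and AAGATGGCG (YY1), factors known to act on nuclear genes for mitochondrial proteins. None of these strings contains another. CCGGAAG was found in 34.7% of the members' windows, against 15.8% of the 13954 windows of tested protein-coding genes and 8.86% of all 32851 windows. GCGCATGCG stood in 9.33% of the members' windows, against 3.34% and 1.75%, and AAGATGGCG in 10.7%, against 2.66% and 1.4%. At least 1 of the 3 strings occurred in 48% of the members' windows, against 20.4% and 11.4%. Others differed less. CCAAT, the box of NF-Y, was in 40% of the members' windows, against 37.6% and 37.4%, and TATAAA in 6.67%, against 7.03% and 13.6%. The median window of a member held 21 CpG dinucleotides, close to the 20 of tested protein-coding genes. A matching string is a description of the window and not a bound site.

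5 windows are printed 5′ to 3′ on the strand of the gene, in lower case with matches to CCGGAAG, GCGCATGCG or AAGATGGCG, or to their reverse complements, in capitals. Mrps11 and Mrpl46 are shown because they form the pair of members, and their windows overlap by 141 bases, read in opposite directions. The Mrps11 window (chr7:78782881-78783180, plus strand) has the YY1 string on the opposite strand, 108 bases before the start. The Mrpl46 window (chr7:78783040-78783339, minus strand) has none of the strings. However, the YY1 string of the Mrps11 window is on the strand of Mrpl46 and lies just past the downstream end of the Mrpl46 window. It is therefore near the starts of both genes. Mrps12 (chr7:28741772-28742071, minus strand) is shown as the member of this chromosome with the lowest genotype difference, and has the ETS string just after its start. Mrps27 (chr13:99344536-99344835, plus strand) holds the ETS and the YY1 string together. Mrpl32 (chr13:14612988-14613287, minus strand) has 3 matches to the NRF1 string, a pair of them overlapping on opposite strands of the palindrome.
Mrps11: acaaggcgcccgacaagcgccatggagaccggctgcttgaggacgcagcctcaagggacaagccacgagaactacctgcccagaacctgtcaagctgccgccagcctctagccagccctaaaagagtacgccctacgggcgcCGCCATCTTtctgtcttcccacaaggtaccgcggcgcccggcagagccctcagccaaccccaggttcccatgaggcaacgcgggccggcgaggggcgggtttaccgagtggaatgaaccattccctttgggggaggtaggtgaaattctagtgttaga
Mrpl46: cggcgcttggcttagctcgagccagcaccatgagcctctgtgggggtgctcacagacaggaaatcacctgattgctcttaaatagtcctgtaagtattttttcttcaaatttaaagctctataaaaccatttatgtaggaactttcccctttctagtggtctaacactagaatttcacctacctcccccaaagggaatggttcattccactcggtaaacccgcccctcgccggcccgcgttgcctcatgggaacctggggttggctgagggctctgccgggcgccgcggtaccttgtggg
Mrps12: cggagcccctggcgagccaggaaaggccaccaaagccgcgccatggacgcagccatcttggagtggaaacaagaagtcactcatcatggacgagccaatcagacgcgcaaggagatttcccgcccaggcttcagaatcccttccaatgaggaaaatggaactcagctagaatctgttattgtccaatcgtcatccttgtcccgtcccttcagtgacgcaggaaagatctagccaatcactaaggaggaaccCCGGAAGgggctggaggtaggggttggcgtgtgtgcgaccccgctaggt
Mrps27: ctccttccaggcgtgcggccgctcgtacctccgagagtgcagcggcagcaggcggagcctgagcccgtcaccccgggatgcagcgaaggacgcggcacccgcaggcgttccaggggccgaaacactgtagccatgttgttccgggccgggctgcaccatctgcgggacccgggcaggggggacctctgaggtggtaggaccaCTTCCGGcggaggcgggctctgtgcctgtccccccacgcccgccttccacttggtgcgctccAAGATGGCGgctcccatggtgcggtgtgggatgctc
Mrpl32: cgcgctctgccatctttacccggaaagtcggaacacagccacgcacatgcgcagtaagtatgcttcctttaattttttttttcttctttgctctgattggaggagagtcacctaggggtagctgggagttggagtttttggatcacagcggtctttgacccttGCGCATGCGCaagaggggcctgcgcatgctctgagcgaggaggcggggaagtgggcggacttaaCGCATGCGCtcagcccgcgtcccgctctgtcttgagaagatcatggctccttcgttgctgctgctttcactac

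Transcript levels of the members were set side by side as CPM per kilobase of each gene's principal transcript. The median member stood at 18.7 CPM per kilobase, with quartiles at 10.8 and 23.6. The large-subunit members had a median of 19.1 and the small-subunit members of 17.5 CPM per kilobase. On the same scale the cytosolic ribosomal protein genes (77 genes) had a median of 352 and the nuclear genes of oxidative phosphorylation (78 genes) of 54.6 CPM per kilobase. Transcripts for the proteins of the mitochondrial ribosome were thus the lowest of these 3 groups and above the median of 6.24 for all tested genes.

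The highest levels belonged to genes with short transcripts. Mrpl42, a large-subunit protein found only in mitochondria, stood at 49.2 ± 2.76 CPM per kilobase (SD over 6 libraries). Mrpl52 was at 47.4 ± 1.95, and Mrps21, a small-subunit protein with a bacterial counterpart, at 46.9 ± 3.58 CPM per kilobase. These 3 did not differ beyond their spread. Mrpl33 followed at 41.4 ± 1.24 and Mrpl28 at 37.6 ± 0.507 CPM per kilobase. At the low end stood Mrpl48 at 3.80 ± 0.129, Mrps25 at 3.86 ± 0.158, Mrps26 at 4.44 ± 0.235, Mrpl17 at 4.45 ± 0.395 and Mrps16 at 4.56 ± 0.215 CPM per kilobase. Mrpl48 and Mrps25 did not differ beyond their spread, nor did Mrps26, Mrpl17 and Mrps16.

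This order depends on the length used. The principal transcript of Mrpl17 is 7300 bases long and that of Mrps25 is 6073, while that of Mrpl52 is 418. With the median length of a gene's protein-coding transcripts, 2 of the 5 highest and 3 of the 5 lowest members were the same. With the union of exons, 2 and 2 were the same, and Mrpl33 moved from the 5 highest to the 5 lowest, at 2.70 CPM per kilobase. The 3 members whose symbol and place differ were not at either end: Mrps30 stood at 10.6 ± 0.519, Mrps18a at 22 ± 1.25 and Mrps36 at 17.5 ± 0.887 CPM per kilobase.

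**Figure D1:**
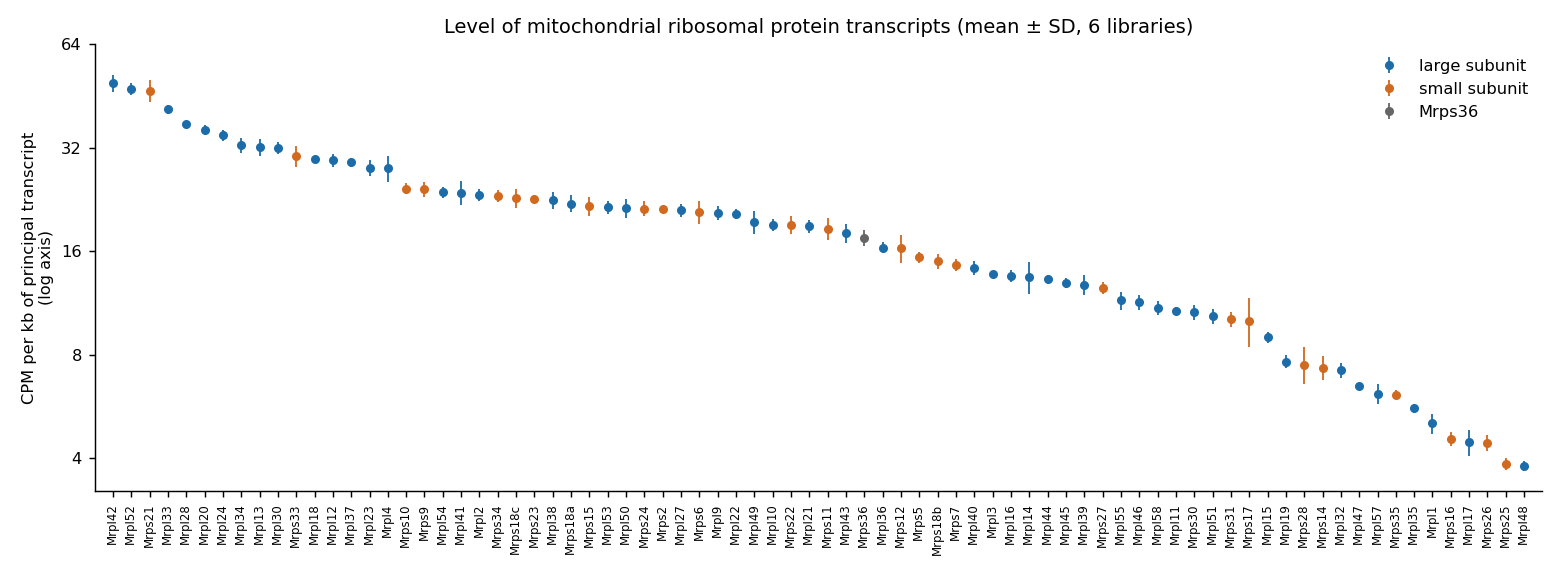
Level of each of the 78 members in CPM per kilobase of the principal transcript (log axis), ordered from high to low, with points and bars for the mean ± SD over 6 libraries. Large-subunit (blue) and small-subunit (orange) genes are mixed along the whole range from 49.2 (Mrpl42) to 3.80 (Mrpl48), and the bars are short beside the differences between genes.

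The summed level of the members varied little between libraries. With TMM scaling it was 2030, 2030 and 2001 CPM in the control pools SF3, SF4 and SF5_6, and 2032, 2062 and 2043 CPM in the SmadNes pools of the same names. The lowest and highest library differed by 3.04%. The means were 2020 ± 16.5 and 2045 ± 15.2 CPM (SD, n = 3 each), 1.01-fold apart, and the SmadNes libraries lay just above the controls. That order depends on the scaling. As plain shares of the total count, the members took 0.201%, 0.201% and 0.207% in the controls and 0.2%, 0.201% and 0.21% in the SmadNes pools. The groups overlapped on this scale, the span was 5.08%, and both SF5_6 libraries were the highest.

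The large-subunit genes summed to between 1356 and 1379 CPM, a span of 1.67%, and their groups overlapped. The small-subunit genes summed to 660, 639 and 633 CPM in the controls and 656, 675 and 651 CPM in the SmadNes pools, a span of 6.65%, and the groups overlapped there as well. With TMM scaling, sums over the same libraries spanned 8.13% for cytosolic ribosomal protein genes and 4.49% for nuclear genes of oxidative phosphorylation. The plot of summed levels sets these beside the other gene groups.

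**Figure D2:**
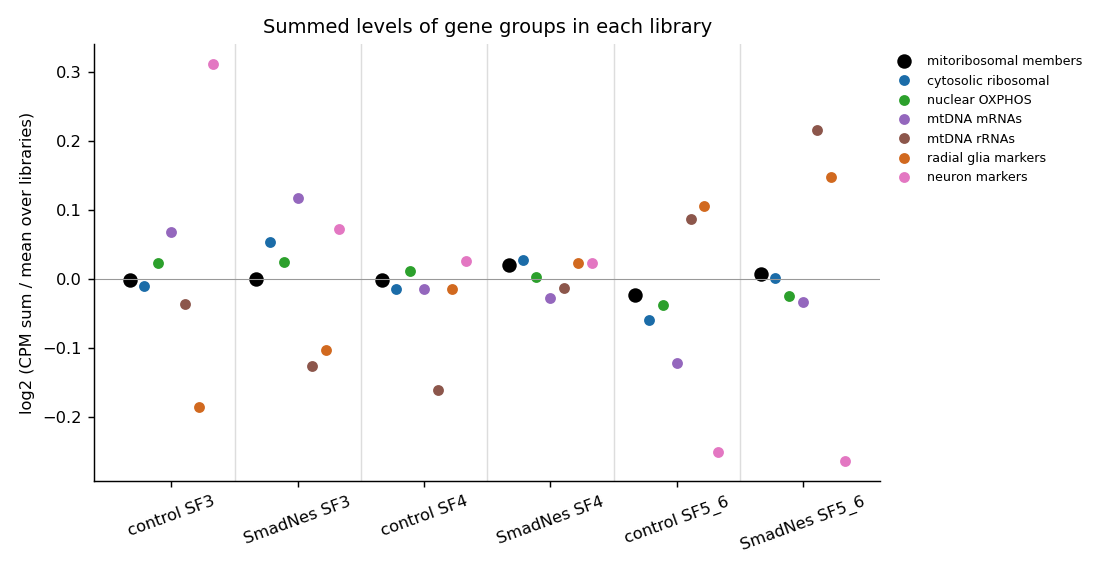
Summed CPM (TMM scaling) of 7 gene groups in each library, as log2 of the sum over its mean across the 6 libraries. The sum over the 78 members (large black points) stays near 0 in every library, while neuron markers are lower, and radial glia markers and mitochondrial rRNAs higher, in the libraries of the SF5_6 pools.

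Single members were also steady. The coefficient of variation (SD over mean of the 6 CPM values) had a median of 4.80% over the members, with a range of 1.35% to 16.4%. Counting error alone would give a median of 3.50% at these depths, since a member had 210 to 2468 counts per library on average. Over all tested genes the median was 10.5%, and over the 7001 tested protein-coding genes in the members' CPM range it was 7.46%, with a counting error of 3.36%. The cytosolic ribosomal protein genes had a median of 4.16% and the nuclear genes of oxidative phosphorylation of 4.43%, with smaller counting errors of 0.957% and 2.35%.

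Mrpl28, a large-subunit protein with a bacterial counterpart, varied least. Its levels were 40.8, 40.1 and 40.0 CPM in the controls and 40.1, 39.2 and 40.6 CPM in the SmadNes pools (SF3, SF4, SF5_6). Mrps17, a small-subunit protein with a bacterial counterpart, varied most. It stood at 58.9, 37.5 and 46.1 CPM in the controls and 54.2, 59.2 and 49.4 CPM in the SmadNes pools. The control SF4 library was the low one, and the groups overlapped.

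The first comparison asks whether the transcripts of these genes differ between SmadNes cells and cells of control littermates. No member passed. At a Benjamini-Hochberg adjusted p below 0.05, edgeR's quasi-likelihood test called 0 of the 78 members and 0% of all tested genes. With the pool name as a block it called 0 members and 4 of all genes (0.0237%), among them Smad5, which was higher in SmadNes. DESeq2 called 0 members and 7 of all genes (0.0415%), and limma-voom 0 members and 1 of all genes (0.00593%). At an unadjusted p below 0.05, 1 member passed edgeR's test, beside 1.05% of all tested genes. With the block 1 member passed, beside 6.23% of all tested genes.

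The fitted differences were small. The median log2 difference of the members, SmadNes minus control, was 0.01, beside -0.00038 over all tested genes. It ranged from -0.14 to 0.19, so the largest fitted change was 1.14-fold. Within the pairs the members' medians were 0.0022 (SF3), 0.01 (SF4) and 0.02 (SF5_6). The sign was positive for 51 members and negative for 27, and positive for 8403 and negative for 8466 of all tested genes. In all 3 pairs 7 members were higher in SmadNes (8.97%), beside 13.8% of all tested genes, and 6 were lower (7.69%), beside 14.3%. All SmadNes libraries stood above all controls for 3 members (Mrps11, Mrpl40 and Mrps2), beside 2.39% of all tested genes, and below all controls for 2 members (Mrpl41 and Mrpl48), beside 2.38%. With CPM from library totals and no TMM scaling, the members above all controls were Mrps11 and Mrps34, beside 1.79% of all tested genes. Those below were Mrpl41, Mrpl24 and Mrpl52, beside 3.15%. The standard error of a member's log2 difference had a median of 0.072 and was 0.166 at most.

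By subunit, the median log2 difference was 0.01 for the large-subunit members and 0.03 for the small-subunit members. All 6 members that were lower in each pair belong to the large subunit, which holds 3 of those higher in each pair. The small subunit holds the other 4. Members with a bacterial counterpart had a median of 0.01 and those found only in mitochondria of 0.02. These differences between classes were not tested.

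**Figure D3:**
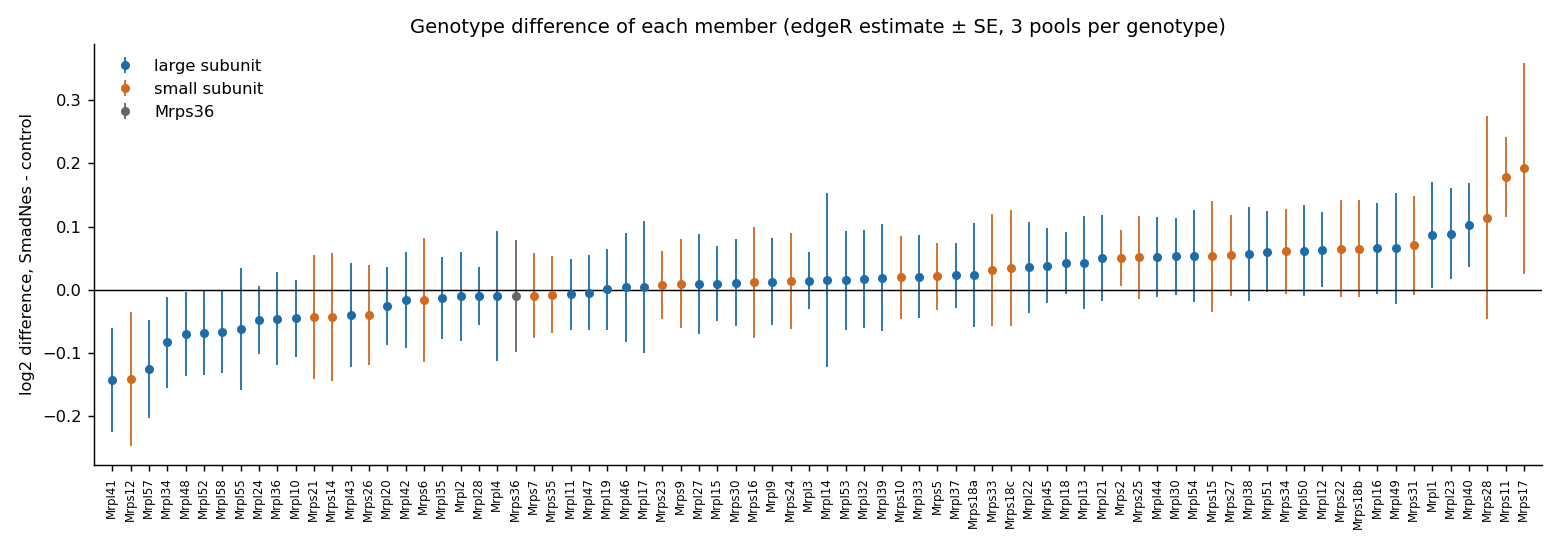
Log2 difference between SmadNes and control for each member, ordered by size, with the edgeR estimate and its SE from 3 pools per genotype. Most bars cross 0, Mrps11 stands at 0.18 (SE 0.063) and Mrps17 has the highest estimate (0.19) with the longest bar (0.166).

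Mrps11 (ENSMUSG00000030611.10, GRCm38 chr7:78783119-78792989, plus strand) was the member that passed at an unadjusted p. It stood at 18.3, 18.5 and 18.5 CPM in the control pools SF3, SF4 and SF5_6, and at 20.3, 21.8 and 20.5 CPM in the SmadNes pools. Every SmadNes library was higher than every control, and the controls were nearly equal. The means were 18.4 ± 0.0795 and 20.9 ± 0.82 CPM (SD, n = 3 each), 1.13-fold apart, with a log2 difference of 0.18 (SE 0.063) and an unadjusted p of 0.0293 by edgeR. With the block the unadjusted p was 0.0173 and the adjusted p 0.673, so the difference did not pass over all genes.

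Mrpl46 (ENSMUSG00000030612.6, chr7:78775236-78783531, minus strand), which starts beside Mrps11 on the other strand, showed no such difference. It stood at 13.0, 12.6 and 13.1 CPM in the controls and at 12.2, 12.6 and 14.0 CPM in the SmadNes pools. The groups overlapped, and the log2 difference was 0.0038 (SE 0.086). The difference between these neighbours was not tested. The gene models overlap at their starts on opposite strands, and per the labels the authors counted the reads with a setting for stranded libraries.

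Mrpl40, a large-subunit protein found only in mitochondria, stood at 17.8, 17.3 and 17.9 CPM in the controls and 18.8, 18.3 and 19.8 CPM in the SmadNes pools. With TMM scaling the groups did not overlap, and the log2 difference was 0.10 (SE 0.066, unadjusted p of 0.169 by edgeR). Mrps2, a small-subunit protein with a bacterial counterpart, was at 42.9, 43.0 and 44.1 CPM in the controls and 45.7, 44.2 and 44.7 CPM in the SmadNes pools. These groups were barely apart, and only with TMM scaling, with a log2 difference of 0.05 (SE 0.045). Mrpl23, whose protein lies at the exit of the peptide tunnel, had a log2 difference of 0.09 (SE 0.072), with 18.4, 18.0 and 19.7 CPM in the controls and 20.4, 20.4 and 18.9 CPM in the SmadNes pools. Its SF5_6 pair ran against the others. Mrpl12, known to bind the mitochondrial RNA polymerase, had a log2 difference of 0.06 (SE 0.059), and 0.03 without the control SF3 library.

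Among the lower members, Mrpl41 stood at 20.8, 18.5 and 18.5 CPM in the controls and at 17.6, 18.4 and 16.5 CPM in the SmadNes pools. Every SmadNes library was below every control, although the SF4 pair was almost level. The log2 difference was -0.14 (SE 0.082, unadjusted p of 0.132 by edgeR, and 0.0705 with the block). Without the control SF3 library it was -0.08. Mrps12, which encodes a protein of the decoding centre, stood at 15.9, 15.3 and 14.2 CPM in the controls and 13.4, 15.4 and 12.4 CPM in the SmadNes pools. It was lower in the SF3 and SF5_6 pairs and level in SF4, with a log2 difference of -0.14 (SE 0.105). It was -0.07 without the SmadNes SF5_6 library and -0.23 without the SmadNes SF4 library. Sars2, the mitochondrial seryl-tRNA synthetase, starts 172 bases from Mrps12 on the other strand, and its log2 difference was -0.01.

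Mrpl57 stood at 17.4, 18.7 and 19.3 CPM in the controls and 17.9, 16.4 and 16.5 CPM in the SmadNes pools, with a log2 difference of -0.13 (SE 0.077). The SF3 pair ran the other way. Mrpl34 had a log2 difference of -0.08 (SE 0.071) and Mrpl58, a peptidyl-tRNA hydrolase built into the large subunit, of -0.07 (SE 0.066). Leaving out single libraries moved Mrpl34 between -0.13 (without SmadNes SF4) and -0.04 (without SmadNes SF5_6). It moved Mrpl58 between -0.10 (without SmadNes SF5_6) and -0.03 (without SmadNes SF4). Mrps17 had the highest fitted log2 difference, 0.19 (SE 0.166). With the block and without the SF4 pair, which holds its low control, the log2 difference of Mrps17 was -0.02. Neither value passed.

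Mrpl48 (log2 difference -0.07, SE 0.066) stood at 16.7, 16.12 and 17.2 CPM in the controls and 15.8, 16.05 and 15.8 CPM in the SmadNes pools. With TMM scaling every SmadNes library was below every control, by a small margin. Its processed pseudogene Mrpl48-ps, on chromosome 4 and not a member, went the other way, with 0.723, 1.09 and 1.38 CPM in the controls and 1.92, 2.00 and 2.37 CPM in the SmadNes pools. The pseudogene's log2 difference was 0.97 (SE 0.271), and with the block edgeR's adjusted p was 0.381. It held 25 to 82 counts per library. RSEM divides reads that fit both copies by estimation, so the values of Mrpl48 and Mrpl48-ps are uncertain.

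On chromosome 7 there are 6 members, and their log2 differences were 0.18 (Mrps11), 0.09 (Mrpl23), 0.0045 (Mrpl17), 0.0038 (Mrpl46), -0.07 (Mrpl48) and -0.14 (Mrps12). They spread over nearly the whole range of the 78 members, and their median was 0.0041, beside -0.02 for all 1328 tested genes of the chromosome. With the block, edgeR called 3 of these 1328 genes, of 4 called over all 16869, and 0 of the members. At an unadjusted p below 0.05 with the block, 129 of the 1328 passed, beside 1051 of all 16869. The cause was not tested.

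**Figure D4:**
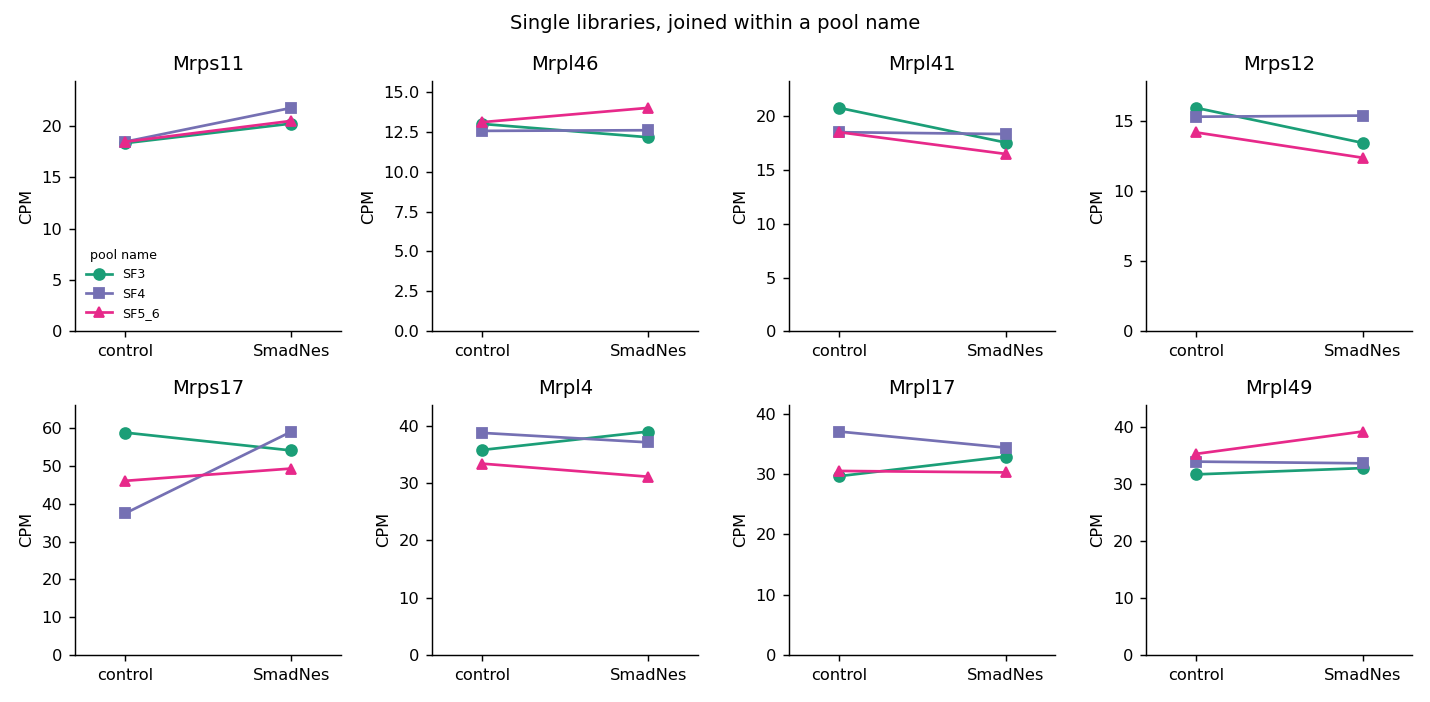
CPM of 8 members in each of the 6 libraries (vertical axes from 0), with lines joining the control and SmadNes library of a pool name. Mrps11 is higher in SmadNes along all 3 lines while its neighbour Mrpl46 is not, and the low control SF4 library of Mrps17 and the low SF5_6 libraries of Mrpl4 can be seen.

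The second comparison asks how the members differ between the pools, which the labels name alike in both genotypes. An F test over the pool names with genotype in the fit called 4864 of all tested genes (28.8%) at an adjusted p below 0.05 by edgeR, but 0 of the 78 members. Among the 7001 protein-coding genes in the members' CPM range it called 29.7%. At an unadjusted p below 0.05, 5 members passed (6.41%), beside 40.6% of all tested genes. DESeq2's likelihood ratio test called 0 members and 18.7% of all tested genes. Without the filter on low counts edgeR called 4 members (Mrpl4, Mrps17, Mrpl17 and Mrps33), 5.13% of them, beside 6357 of the 28368 genes then tested (22.4%). Leaving out a single library gave between 0 and 2 members, beside between 3449 and 4769 of all genes. These members were Mrpl4 and Mrpl17 without the SmadNes SF3 library, Mrpl4 without the control SF3 library, and Mrps17 without either SF4 library. The F test asks for any difference among the pool names and has no direction. Log2 differences of SF5_6 from the mean of the others are a separate contrast shown beside it. For Mrps17 that contrast was -0.28 without the control SF4 library and 0.06 without the SmadNes SF4 library. In the second of these runs the SF4 library that remained was its low control.

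Among groups compared in the same fit, 7 of the 77 cytosolic ribosomal protein genes (9.09%) and 3 of the 78 nuclear genes of oxidative phosphorylation (3.85%) were called. These groups had more counts, with medians of 10920 and 1807, against 817 for the members. Their median absolute log2 differences of SF5_6 from the others were 0.059 and 0.073, against 0.062 for the members. The groups were not tested against each other. Of the markers, 6 of 8 for radial glia were called, 5 of them higher and 1 lower in SF5_6. For neurons 5 of 6 were called, 1 higher and 4 lower. All 6 erythroid, all 4 microglial, all 4 mesenchymal and 2 of 3 endothelial markers were called too. Each was higher in SF5_6 than in the mean of SF3 and SF4, the direction used for all these markers. The microglial markers were lowest in SF4 and highest in SF3. In control and SmadNes they summed to 59.3 and 62.9 CPM (SF3), 9.03 and 7.46 CPM (SF4), and 45.2 and 45.4 CPM (SF5_6). The members' levels moved little between libraries in which the markers of several cell types moved. The log2 difference of the SF5_6 pools from the mean of SF3 and SF4 had a median of -0.0043 over the members, with quartiles at -0.08 and 0.05 and a range of -0.22 to 0.19. Radial glia markers had a median of 0.18 (range -0.07 to 0.38) and neuron markers of -0.25 (range -1.40 to 0.34) in the same contrast. Single markers in either list thus went both ways.

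**Figure D5:**
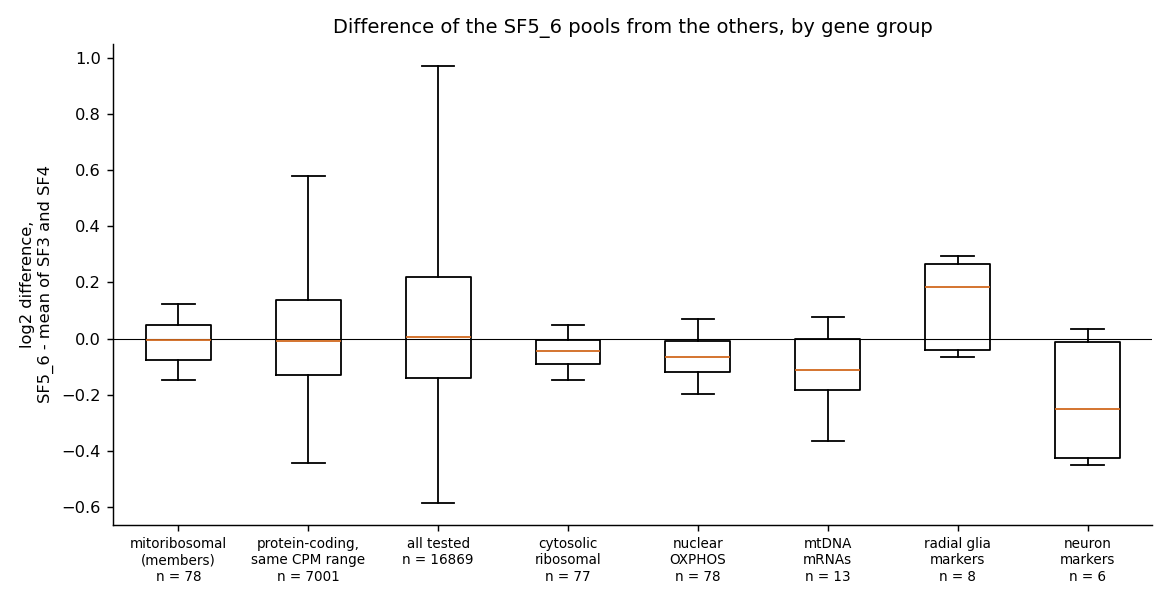
Log2 difference of the SF5_6 pools from the mean of the SF3 and SF4 pools by gene group, with boxes for the quartiles, an inner line for the median and whiskers to the 5th and 95th percentile of genes. The box of the 78 members is centred near 0 (median -0.0043) and is narrower than those of all tested genes and of protein-coding genes in the members' CPM range. The boxes of the cytosolic ribosomal protein genes and of the nuclear genes of oxidative phosphorylation are narrower still.

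The members with the smallest p in this test moved in both directions. Mrpl4, a large-subunit protein that lines the peptide tunnel, stood at 35.8, 38.8 and 33.4 CPM in the controls and 39.0, 37.1 and 31.1 CPM in the SmadNes pools (SF3, SF4, SF5_6). Both SF5_6 libraries were the lowest, with a log2 difference from the others of -0.22 (SE 0.063) and an adjusted p of 0.0623 by edgeR. Mrps33, a small-subunit protein found only in mitochondria, was also lowest there, with 34.8, 35.3 and 29.3 CPM in the controls and 34.0, 35.4 and 32.2 CPM in the SmadNes pools. Its adjusted p was 0.0989 by edgeR.

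Mrpl49 was highest in the SF5_6 libraries, with 31.6, 33.9 and 35.2 CPM in the controls and 32.7, 33.6 and 39.2 CPM in the SmadNes pools, at an adjusted p of 0.0912 by edgeR. Mrpl17, a large-subunit protein with a bacterial counterpart, was highest in the SF4 libraries, with 29.7, 37.1 and 30.5 CPM in the controls and 32.9, 34.4 and 30.3 CPM in the SmadNes pools (adjusted p of 0.0795 by edgeR). Mrps14 was lowest in the SF3 libraries, with 20.02, 23.0 and 24.0 CPM in the controls and 19.7, 23.4 and 22.0 CPM in the SmadNes pools (adjusted p of 0.0811 by edgeR). The next members, Mrpl50, Mrps6 and Mrpl39, had log2 differences of 0.14, 0.19 and 0.14 for SF5_6 against the others, and edgeR's adjusted p was 0.153 or above.

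The neighbours that share a start region with a member can be read beside it. Of the 29 tested partners that are not members themselves, 5 were called in the F test over pool names. This is 17.2%, below the 28.8% of all tested genes. Each adjusted p that follows is from this F test, while the log2 differences set SF5_6 against the mean of the others. Ska3, a spindle and kinetochore protein, starts 49 bases from Mrpl57 and had means of 19.9 (SF3), 24.9 (SF4) and 28.1 CPM (SF5_6). Its log2 difference was 0.34 (adjusted p of 0.0022 by edgeR), while Mrpl57 stood at 0.02. Eme1, a subunit of a DNA endonuclease, starts 197 bases from Mrpl27 and had 0.55 (adjusted p of 0.00698 by edgeR). Klc4, a kinesin light chain, starts 207 bases from Mrpl2 and had -0.29 (adjusted p of 0.0214 by edgeR). Fau, which encodes a cytosolic ribosomal protein fused to a ubiquitin-like protein, starts 59 bases from Mrpl49 and had -0.17 (adjusted p of 0.0347 by edgeR), where Mrpl49 had 0.17. Tmem63b, a membrane channel, starts 583 bases from Mrpl14 and had -0.18 (adjusted p of 0.0321 by edgeR). These partners were chosen by their values, and the difference from the member was not tested.

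Other genes of mitochondrial translation were read from lists chosen with earlier results of these data known. For genotype, 0 of their genes were called by edgeR (with or without the block), DESeq2 or limma-voom. At an unadjusted p below 0.05 in edgeR without the block, 1 assembly factor and 1 mitochondrial mRNA passed. The counts below are for the F test over pool names. Of 5 mitoribosomal proteins under other symbols, 1 was called: Gadd45gip1, a large-subunit protein, fell in SF5_6 from 40.99, 40.95, 40.5 and 43.3 CPM in the other libraries to 33.3 and 33.1 CPM (log2 difference -0.32). Of 25 assembly and rRNA processing factors, 2 were called, both lower in SF5_6. Mpv17l2, which takes part in ribosome assembly in mitochondria, had a log2 difference of -0.84, from between 12.6 and 14.0 CPM to 8.05 and 6.95 CPM. Dhx30, an RNA helicase, had -0.15. DESeq2's likelihood ratio test called 1 of the 25.

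Of 15 translation factors and 10 genes of mitochondrial DNA transcription and replication, 0 were called by edgeR or DESeq2, with 1 and 3 at an unadjusted p below 0.05 in edgeR. Of 17 mitochondrial aminoacyl-tRNA synthetases, 1 was called: Cars2, for cysteine, with a log2 difference of -0.24 and an adjusted p of 0.0493 by edgeR. DESeq2 called 0 of the 17. Lars2, the synthetase for leucine, varied most among them, at 427, 681 and 442 CPM in the controls and 1011, 895 and 364 CPM in the SmadNes pools. Its adjusted p was 0.0643 by edgeR.

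Of 13 mRNAs encoded in the mitochondrial genome, 5 were called (38.5%, beside 28.8% of all tested genes), and all 5 were lower in SF5_6: mt-Nd4l, mt-Nd4, mt-Cytb, mt-Nd5 and mt-Co2, with log2 differences of -0.37, -0.18, -0.17, -0.17 and -0.34. The small ribosomal RNA mt-Rnr1 rose in SF5_6, from between 139 and 154 CPM to 198 and 213 CPM (log2 difference 0.48). The other 8 mRNAs, with log2 differences from -0.61 (mt-Co3) to 0.28 (mt-Atp6), and the large ribosomal RNA mt-Rnr2 (0.14) did not pass. These genes had more counts than the members, with a median of 19975 for the mRNAs and 817 for the members, and the groups were not tested against each other. The libraries were made as mRNA libraries, per the kit's name, and how fully they capture mt-Rnr1 was not measured here.

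Of 10 regulators known to act on nuclear genes for mitochondrial proteins, 3 were called in the F test over pool names, all lower in SF5_6. This share of 30% is close to the 28.8% of all tested genes. They were Mycn (log2 difference -0.40), Esrra (-0.40) and Myc (-0.27), and DESeq2 called 2 of the 10. Mycn and Myc encode transcription factors that drive growth and ribosome production, and Esrra a nuclear receptor that acts on genes of energy metabolism. Mycn stood at 119, 124, 121 and 134 CPM in the SF3 and SF4 libraries and at 90.01 and 99.5 CPM in those of SF5_6. Nrf1 and Yy1, whose binding strings were counted in the promoter windows, did not pass (log2 differences of -0.01 and 0.05). Marker genes moved in the same libraries. The median log2 difference of SF5_6 from the others was 0.18 for radial glia markers, -0.25 for neurons, 1.79 for erythroid cells, 1.04 for mesenchyme, 0.92 for microglia and 0.63 for endothelium. Single radial glia and neuron markers went both ways. Their part in the differences between pools was not tested.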

How the data were processed

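RNA of 6 pools of sorted cells was sequenced as stranded paired-end libraries. Per the labels' protocols the authors aligned them with STAR 2.5.3a (GRCm38) and estimated expression with RSEM 1.3.0, set for stranded libraries, on a GENCODE annotation. The authors deposited expected counts per gene as whole numbers without scaling between libraries. How they became whole is not stated in the labels. The submitters' processing notes also name DESeq2 1.18.

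Each column was matched to the sample whose title holds its name. Counts were tested with edgeR 4.0.16 (TMM scaling, filterByExpr, quasi-likelihood F test, two-sided) in R 4.3.3, adjusted by Benjamini-Hochberg over all 16869 genes kept. The terms were genotype alone for the first comparison and pool name with genotype for the second. DESeq2 1.42.0, limma-voom 3.58.1, a fit with the pool name as a block, no filter and leaving out each library were alternatives. Values are CPM with TMM scaling unless said otherwise, as mean ± SD. Positions and lengths come from GENCODE M21 on GRCm38, and 52489 gene IDs were matched. Here 8 members share exon sequence with another gene on the same strand and 28 on the opposite strand.

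The total count per library was at least 32997423, and a count of 0 allows up to 3 counts, at most 0.0909 CPM, for counting error only. Libraries of 1 genotype differed beyond sampling noise (chi-square per degree of freedom 11.4 to 47.7).

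Pool names recur in both groups, and the labels speak of pairs. Across genes, the deviations of same-named libraries from their group means had correlations of 0.493, 0.697 and 0.724, and those of other pairs were -0.058 or lower. The names were therefore taken to pair the samples. The main genotype fit and its SEs leave this pairing out, while the fit with the block uses it. The median SE of a member's log2 difference was 0.072 without the block and 0.061 with it.

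Members named are those with the smallest p per direction (up to 5, with and without the block) or in the pool test (up to 8), the 5 highest and 5 lowest per kilobase, all on chromosome 7 and the 3 whose symbol and place differ. Other members and genes, among them Lars2 and those with extreme variation, were named after their values were seen. The members and lists were chosen with earlier results of these data known.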

Additional observations from a re-analysis of the deposited data

How the results depend on the processing

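Member calls for genotype stayed at 0 in every alternative run. Over all genes edgeR called 0, against 4 with the replicate block, 7 with DESeq2 and 1 with limma-voom. With the block and a pair left out the counts were 4 (SF3), 46 (SF4) and 61 (SF5_6), and with the block in DESeq2 and limma-voom, settings chosen after seeing the data, 13 and 8. The members' median log2 difference was 0.027 with the block without the SF3 pair and -0.00025 without the SF5_6 pair. It lay between 0.0010 (without the control SF5_6 library) and 0.029 (without the SmadNes SF3 library) when single libraries were left out. Mrps17 had -0.016 with the block without the SF4 pair. The cause was not tested.

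In the test over pool names 4864 genes were called, against 3161 with DESeq2. Without the low-count filter edgeR called 4 members, Mrpl4, Mrps17, Mrpl17 and Mrps33 (adjusted p of 0.00896, 0.0141, 0.0178 and 0.0456). Leaving out single libraries gave 0 to 2 members, beside 3449 to 4769 of all genes. The members were Mrpl4 without the control SF3 library, Mrpl4 and Mrpl17 without the SmadNes SF3 library, and Mrps17 without either SF4 library. CPM without TMM scaling, also added after seeing the data, left Mrps11 and Mrpl41 of the 5 members whose groups did not overlap. The median level was 21.2 CPM per kilobase with the median transcript length and 10.4 with the union of exons. Low counts limit Mrps28, at 5.86 CPM.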
